A study of Psammomys obesus with 8 samples.

Results

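Lrp1, Apoe, Apob, Abca1, Nr1h2, Nr1h3, Srebf1 and Srebf2 form a small set of lipoprotein and cholesterol genes, and 112 assembled contigs of the fat sand rat, *Psammomys obesus*, lay inside them by similarity to mouse, out of 548060 contigs in all. A contig counted as inside a gene where the table gave the mouse gene and a distance of 0. These were 37 contigs in Lrp1, 30 in Abca1, 17 in Srebf2, 10 each in Apob and Srebf1, 3 each in Nr1h2 and Nr1h3, and 2 in Apoe. The data are read counts from hypothalamic DNA enriched for methylated fragments by binding to a domain of the protein MBD2 (MethylMiner). All 8 libraries came from male offspring at a postnatal age of 16 weeks, 4 labelled standard-low (Standard-Low lipid, diet given as Standard Lipid) and 4 labelled low-low (Low-Low lipid, diet given as Low lipid). The design text speaks of a paternal diet and the title of a parental one. The labels do not say which diet each word of a group name stands for, whether a library holds 1 animal or several, or whether replicates had separate fathers. The sand rat is a desert gerbil that becomes obese and diabetic on energy-rich chow.

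Lipoproteins carry cholesterol and triglyceride between cells, and in the brain, which makes its own cholesterol behind the blood-brain barrier, particles bearing apolipoprotein E are released mainly by astrocytes and taken up by lipoprotein receptors. Cholesterol leaves cells through transporters that load it onto apolipoproteins. A pair of transcription systems balances the supply: the liver X receptors, which sense oxysterols and switch on efflux genes, and the sterol regulatory element-binding proteins, which switch on synthesis and uptake when sterols are low.

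Captured counts reflect methylation together with CpG density and the amount of the underlying DNA. In bulk tissue, fewer cells carrying methylated copies and less methylation per cell cannot be told apart. Transcripts were not measured, so the levels below are captured DNA and say nothing of expression, and the hypothalamic origin could not be checked against expressed markers. CPM denotes counts scaled to a common library size with TMM factors, and values per kb are divided by the length of the contigs. Log2 fold changes are standard-low over low-low with a standard error derived from the edgeR test.

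The sequences below show the kind of DNA these counts rest on, with every CpG, the target of capture, in capitals. Lrp1 contig 2313718 had the lowest p of all 112 contigs, and Lrp1 contig 411230 had almost no counts in one library. The Apoe contig is the most CpG-rich of the set, and the Abca1 contig had the lowest p of a CpG-poor gene. Sequences are sand rat contigs as deposited, matched to mouse chr10:127567136-127567540 for 2313718, chr10:127559962-127560078 for 411230, chr7:19696367-19696730 for 1059729 and chr4:53074004-53074546 for 1221367. The match of 1059729 was to the minus strand and the others were to the plus strand, and no source used here names the mouse build. Contig 411230 is whole at 286 bases, and the others are the 300 bases with the most CpG.
Lrp1 contig 2313718: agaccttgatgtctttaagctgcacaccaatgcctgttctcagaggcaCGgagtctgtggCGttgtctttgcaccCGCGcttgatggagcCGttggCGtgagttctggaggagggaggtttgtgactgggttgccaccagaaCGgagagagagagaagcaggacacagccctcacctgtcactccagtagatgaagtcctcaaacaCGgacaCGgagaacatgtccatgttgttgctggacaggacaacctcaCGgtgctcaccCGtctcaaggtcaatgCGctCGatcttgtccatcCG
Lrp1 contig 411230: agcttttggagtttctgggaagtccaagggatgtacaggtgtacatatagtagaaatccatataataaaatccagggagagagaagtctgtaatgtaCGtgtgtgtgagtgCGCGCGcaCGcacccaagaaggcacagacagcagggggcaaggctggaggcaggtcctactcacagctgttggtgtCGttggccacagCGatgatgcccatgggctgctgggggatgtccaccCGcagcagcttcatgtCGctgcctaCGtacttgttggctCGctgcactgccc
Apoe contig 1059729: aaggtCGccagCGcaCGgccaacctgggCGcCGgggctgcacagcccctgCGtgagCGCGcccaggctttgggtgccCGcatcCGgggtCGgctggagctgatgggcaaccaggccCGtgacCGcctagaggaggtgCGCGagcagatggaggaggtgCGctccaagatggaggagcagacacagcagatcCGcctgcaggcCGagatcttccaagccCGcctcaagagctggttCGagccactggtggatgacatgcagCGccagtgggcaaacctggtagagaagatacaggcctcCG
Abca1 contig 1221367: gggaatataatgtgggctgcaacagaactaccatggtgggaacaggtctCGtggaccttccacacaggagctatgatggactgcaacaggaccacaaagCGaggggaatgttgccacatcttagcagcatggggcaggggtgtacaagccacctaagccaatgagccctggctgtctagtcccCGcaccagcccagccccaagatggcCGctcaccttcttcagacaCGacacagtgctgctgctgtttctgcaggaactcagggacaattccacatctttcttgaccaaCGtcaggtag
The printed Apoe stretch holds 22 CpG in 300 bases and the Abca1 stretch 6, with 14 in Lrp1 contig 2313718 and 11 in contig 411230.

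Of the 112 contigs, 0 differed between standard-low and low-low at an adjusted p below 0.05 in edgeR's quasi-likelihood test, where 0.0268% of all contigs did, and DESeq2 and limma voom also called 0. The lowest adjusted p was 0.358. At an unadjusted p below 0.05 there were 12 contigs (10.7%), against 5.68% of the table, of which 7 were lower and 5 higher in standard-low. Of all contigs 2.76% were lower and 2.93% higher at that level, and of the 125082 contigs inside any gene 3.41% were lower and 2.59% higher, 6.0% together, with 0.00799% called. With DESeq2 4 contigs reached it, where 2.28% of all contigs did, and with limma voom 12, where 5.56% did. The groups did not overlap at 7 contigs, 4 lower and 3 higher, which is 3.57% and 2.68% of them. Of all contigs 1.61% were lower and 1.63% higher in this way (3.24% in all), and of contigs inside genes 1.85% and 1.5% (3.35% in all). Across the 112, 74 log2 fold changes were negative (66.1%, against 49.7% of all contigs and 52.6% of those inside genes), with a median of -0.13, against 0.0017 for all contigs. Standard-low 2 was the lowest library at 51 of them (45.5%, against 17.5% of all contigs and 22.5% of those inside genes).

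With the contigs of each gene added up, 0 of the 8 genes passed an adjusted p of 0.05 with edgeR, DESeq2 or limma voom, against 0.00524% of 19098 genes. At an unadjusted p below 0.05 there were 2 genes with edgeR, Lrp1 and Nr1h2, 1 with DESeq2 and 3 with limma voom. Of all genes, 6.03% reached it with edgeR, 3.01% with DESeq2 and 6.53% with limma voom, and 4.32% of all genes were lower at that level with edgeR. The sum was lower in standard-low for 7 genes and higher for Apob, whose sign changed in some settings, as did those of Abca1 and Srebf1. Among all genes 58.6% had a negative value. Standard-low 2 had the lowest sum of the 8 libraries in 6 of the 8 genes, as it did in 32.9% of all genes.

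**Figure D1:**
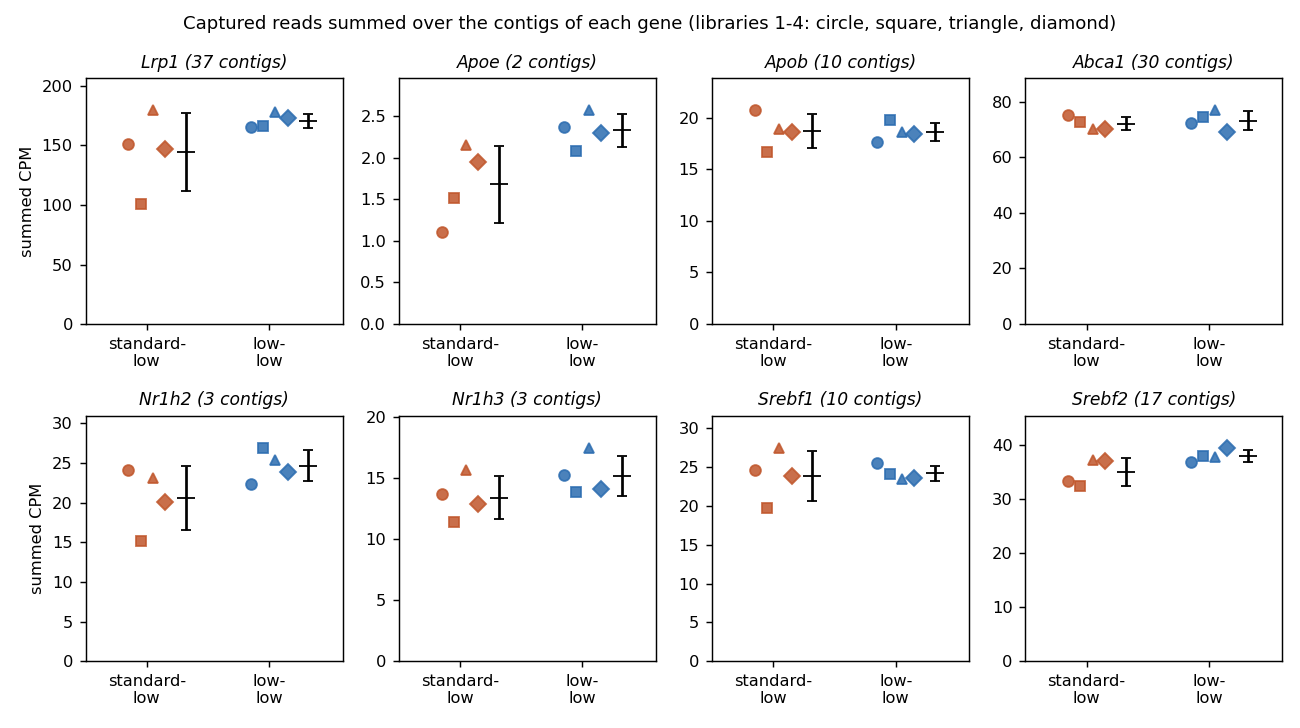
Captured reads summed over the contigs of each gene, in CPM (y axis from 0), for standard-low (orange, left) and low-low libraries (blue, right), with the mean and SD beside each group of 4. Standard-low 2 (square) is the lowest library for 6 genes, including Lrp1 at 100.8 CPM, while standard-low 3 (triangle) lies at 179 CPM, and the groups overlap in all 8 genes.

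Lrp1 encodes a very large endocytic lipoprotein receptor that takes up apolipoprotein E particles and many other ligands in neurons, glia and vessels. Summed over its 37 contigs it had 151.5, 100.8, 179.4 and 146.9 CPM in standard-low libraries 1 to 4. In low-low libraries 1 to 4 it had 165.3, 166.2, 178.0 and 173.3 CPM. The low-low libraries lay close together, whereas standard-low 1, 2 and 4 lay below all of them, standard-low 2 by far, and standard-low 3 above all of them, so the groups overlapped. The means were 144.7 ± 32.6 CPM in standard-low and 170.7 ± 6.02 CPM in low-low (SD, n = 4 each), a log2 fold change of -0.24 ± 0.10 (edgeR adjusted p = 0.807). The two-sided exact permutation test gave p = 0.143, where 4 against 4 cannot go below 0.0286. Without standard-low 2 the log2 fold change was -0.10 (edgeR adjusted p = 0.966). Without standard-low 3 it was -0.36 with an edgeR adjusted p of 0.0494, so a call was reached when that library was left out. That fit called 30 of 19098 gene sums, 28 of them lower in standard-low, where the main fit called 1. At an unadjusted p below 0.05 it had 2802 gene sums, against 1151 in the main fit.

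The lower counts were spread along the gene rather than gathered in a few contigs. Of the 37 contigs, 31 had a negative log2 fold change (83.8%), with a median of -0.23 and a range from -0.67 to 0.35. Standard-low 2 was the lowest of the 8 libraries at 28 contigs (75.7%), against 17.5% of contigs in the table. It lay below the low-low mean at 34 contigs. Standard-low 4 did so at 28, standard-low 1 at 27 and standard-low 3 at 13. Without standard-low 2, 27 of the 37 contigs were negative with a median of -0.08, against 50.1% negative in the table. Contigs of 1 gene share the libraries and are not replicates of the condition.

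In mouse, Lrp1 is transcribed towards lower coordinates of chromosome 10, and its contigs matched positions 127538716 to 127605681, a span of 66.97 kb. The contig nearest to the 5′ end matched 15.47 kb inside it, and no contig inside the gene was placed nearer to its start. Outside the gene, beyond the 5′ end, contigs paired with Lrp1 matched at 3808 and 9865 bases from it. Dividing the span into equal 5′, middle and 3′ segments put 9, 13 and 15 contigs in them. The 5′ segment had 22.0, 17.2, 23.1 and 20.2 CPM in standard-low 1 to 4, and 23.7, 22.7, 22.6 and 25.2 CPM in low-low 1 to 4. The middle segment had 42.96, 30.4, 54.2 and 45.0 CPM in standard-low, and 51.8, 49.0, 52.9 and 49.2 CPM in low-low. The 3′ segment had 86.6, 53.2, 102.1 and 81.6 CPM in standard-low, and 89.8, 94.5, 102.4 and 98.8 CPM in low-low. In each segment standard-low 2 was the lowest library and standard-low 3 lay within the low-low range or above it. The log2 ratio of group means was -0.19 in the 5′, -0.23 in the middle and -0.25 in the 3′ segment. Per kb of contig, the segments held 5.08, 5.35 and 5.36 CPM in standard-low and 5.80, 6.29 and 6.39 CPM in low-low.

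**Figure D2:**
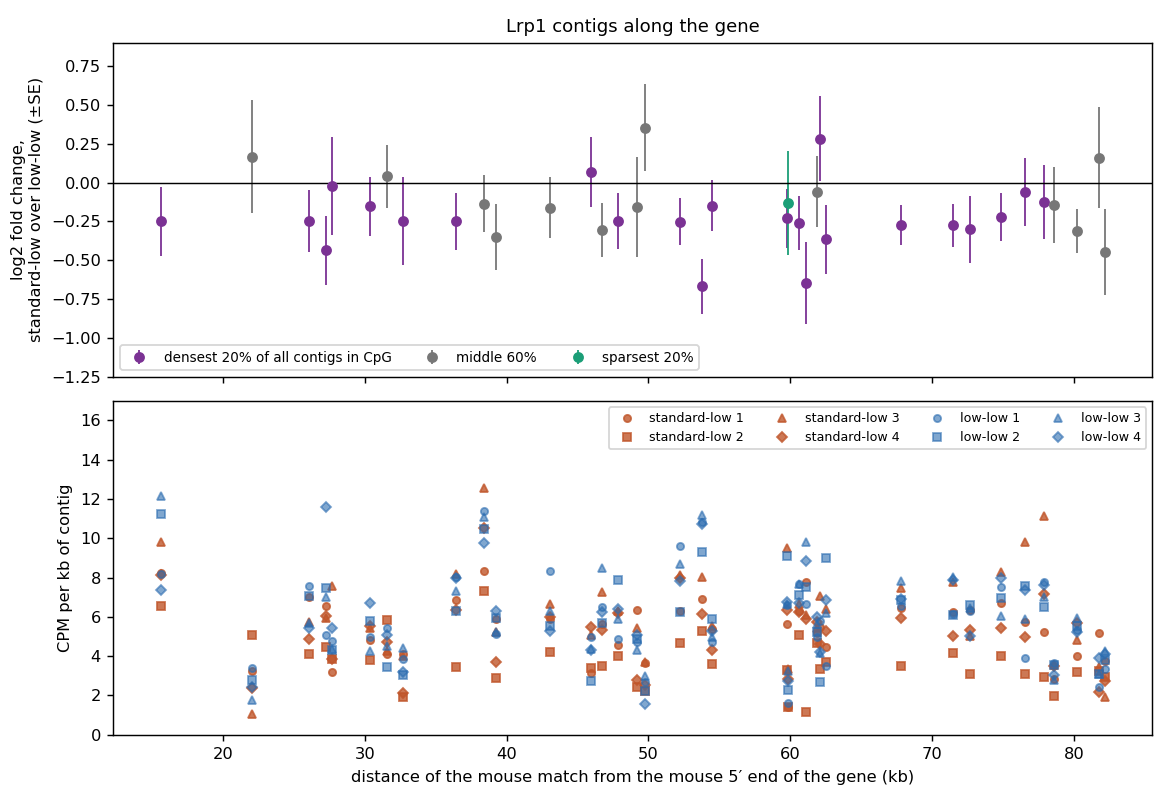
Lrp1 contigs by the distance of their mouse match from the 5′ end of the gene in kb, with the log2 fold change of standard-low over low-low ± SE above (coloured by CpG density) and CPM per kb of contig in each of 8 libraries below (standard-low orange, low-low blue). Of the 37 points above, 31 lie under 0, and standard-low 2 (orange squares) is lowest at 28 contigs.

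Single Lrp1 contigs with an unadjusted p below 0.05 numbered 4, all lower in standard-low. They make up 10.8% of its contigs, against 2.76% of all contigs and 3.41% of those inside genes. In the 3 densest of 20 CpG bins the table share was between 5.197% and 9.466%, and 411230 and 3429685 lay in bin 19, at 6.076%. Contigs 4382941 and 2313718 lay in the less dense bins 16 and 17, where the table share was 3.569% and 3.97%. Contig 2313718, whose CpG-rich stretch is printed above, had 3.42, 2.62, 3.98 and 3.04 CPM in standard-low 1 to 4. It had 5.35, 4.61, 5.54 and 5.30 CPM in low-low 1 to 4. All 4 standard-low libraries lay below all 4 low-low libraries. The log2 fold change was -0.67 ± 0.18 (edgeR unadjusted p = 2.72e-04, adjusted p = 0.358), and the edgeR adjusted p ran from 0.108 to 0.843 when 1 library was left out. Its length was 495 bases with 15 CpG, and its capture of 8.55 CPM per kb was above 99.6% of 7575 table contigs of like CpG density and length.

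Contig 411230 had 26, 4, 21 and 20 counts in standard-low 1 to 4, against 25, 29, 35 and 33 counts in low-low 1 to 4. Standard-low 2 is far below the other libraries, and the groups overlap. This gave a log2 fold change of -0.65 ± 0.26 (edgeR adjusted p = 0.827), and -0.32 without standard-low 2 (edgeR adjusted p = 0.962). The longest and most abundant Lrp1 contig, 3429685, of 5032 bases with 177 CpG, matched positions 127552700 to 127553946 and held 20.5% of the gene's CPM. It had 379, 208, 452 and 355 counts in standard-low, against 431, 466, 490 and 454 counts in low-low. Its log2 fold change was -0.27 ± 0.13 (edgeR adjusted p = 0.867), with -0.09 without standard-low 2 (edgeR adjusted p = 0.978) and -0.41 without standard-low 3. Contig 4382941, at positions 127540366 to 127541429, had 90, 72, 111 and 129 counts in standard-low and 133, 142, 142 and 130 counts in low-low. In CPM standard-low 4 lay within the low-low range, and the log2 fold change was -0.31 ± 0.14 (edgeR adjusted p = 0.858), with -0.18 when standard-low 2 was left out.

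Apolipoprotein E, encoded by Apoe, is the main lipid carrier of the brain and a ligand of Lrp1. Its 2 contigs together had 1.11, 1.52, 2.16 and 1.94 CPM in standard-low 1 to 4, from 13, 18, 26 and 23 counts. In low-low 1 to 4 they had 2.37, 2.08, 2.57 and 2.30 CPM, from 31, 28, 32 and 30 counts. Standard-low 1 was lowest here, not standard-low 2, and standard-low 3 overlapped low-low 2. With both contigs the log2 fold change was -0.46 ± 0.23 (edgeR unadjusted p = 0.0544, adjusted p = 0.807; two-sided exact permutation p = 0.0571). Contig 1059729, the printed one, had 6, 9, 12 and 15 counts in standard-low against 19, 15, 14 and 19 in low-low, with a log2 fold change of -0.54 ± 0.32 (edgeR adjusted p = 0.901), and -0.35 without standard-low 1. With these few counts a change of this size could not be separated from the spread.

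Apob encodes the structural protein of low-density lipoprotein and chylomicrons, made by liver and intestine. Its 10 contigs summed to between 16.7 and 20.7 CPM in standard-low and between 17.7 and 19.8 CPM in low-low, with means of 18.7 ± 1.64 and 18.6 ± 0.87 CPM (SD, n = 4 each). Of these contigs 5 were negative and 5 positive, and 2 reached an unadjusted p below 0.05, both higher in standard-low, as were 2.93% of all contigs and 2.59% of those inside genes. Contig 4571526 had 2.14, 2.36, 1.49 and 1.86 CPM in standard-low 1 to 4, against 1.22, 1.49, 1.12 and 1.08 CPM in low-low 1 to 4. The groups did not overlap, with standard-low 3 just above low-low 2, and the log2 fold change was 0.67 ± 0.26 (edgeR adjusted p = 0.82). The other was contig 1425109, chosen after its values were seen, with 0.52 ± 0.25 (edgeR adjusted p = 0.872). The most abundant contig, 1498343, had a log2 fold change of -0.12 ± 0.19 (edgeR adjusted p = 0.971), between -0.21 without low-low 3 and -0.02 without standard-low 4. The contig nearest the 5′ end, 4475810, starting 71 bases inside the mouse gene, was singled out for its position and had 25, 20, 19 and 19 counts in standard-low against 22, 26, 34 and 32 in low-low (log2 fold change -0.32 ± 0.24, edgeR adjusted p = 0.93).

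Abca1 encodes the transporter that loads cholesterol onto apolipoproteins, and it is a classical target of the liver X receptors. Its 30 contigs gave sums from 70.04 to 75.1 CPM in standard-low and from 69.0 to 76.8 CPM in low-low (means 72.0 ± 2.36 and 73.2 ± 3.30 CPM, SD, n = 4 each). The log2 fold change was -0.02 ± 0.05 (edgeR adjusted p = 0.953). Of its contigs 14 were negative and 16 positive, and 1 in each direction reached an unadjusted p below 0.05 in edgeR. At that level 2.76% of all contigs were lower and 2.93% higher, and 3.41% and 2.59% of those inside genes. The higher Abca1 contig was 152869 with 0.49 ± 0.23, chosen after its values were seen. Contig 1221367, printed above, had 1.80, 1.94, 1.82 and 1.61 CPM in standard-low 1 to 4, against 2.37, 3.12, 2.81 and 2.84 CPM in low-low 1 to 4. The groups did not overlap, and the log2 fold change was -0.63 ± 0.22 (edgeR adjusted p = 0.756). The most abundant contig, 826865, had 101, 127, 70 and 96 counts in standard-low against 111, 121, 115 and 115 in low-low (log2 fold change -0.10 ± 0.15), with standard-low 3 low and standard-low 2 the highest library. Its mouse match covered only 73 of 2307 bases.

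The liver X receptors beta and alpha are encoded by Nr1h2 and Nr1h3. The 3 Nr1h2 contigs summed to 24.1, 15.1, 23.0 and 20.1 CPM in standard-low 1 to 4, and to 22.4, 26.9, 25.4 and 23.8 CPM in low-low 1 to 4. As in Lrp1, standard-low 2 was the lowest library, standard-low 4 was also below the low-low range, and standard-low 1 and 3 lay within it. The log2 fold change was -0.26 ± 0.11 (edgeR unadjusted p = 0.03, adjusted p = 0.807; two-sided exact permutation p = 0.143), and -0.14 without standard-low 2 (edgeR adjusted p = 0.969). Its most abundant contig, 1798941, had 106, 56, 98 and 93 counts in standard-low against 105, 148, 122 and 120 in low-low (log2 fold change -0.35 ± 0.15, edgeR adjusted p = 0.835, and -0.19 without standard-low 2). Nr1h3, also with 3 contigs, summed to 13.7, 11.4, 15.7 and 12.9 CPM in standard-low 1 to 4 and to 15.3, 13.9, 17.5 and 14.1 CPM in low-low 1 to 4. The groups overlapped, and the log2 fold change was -0.18 ± 0.11 (edgeR adjusted p = 0.815), with -0.10 without low-low 3 and -0.11 without standard-low 2. Its most abundant contig, 420221, had a log2 fold change of -0.31 ± 0.17 (edgeR adjusted p = 0.886), and -0.18 without standard-low 2.

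Srebf1 encodes the factor SREBP-1, which acts mainly on fatty acid synthesis, and Srebf2 encodes SREBP-2, which acts mainly on cholesterol synthesis and uptake. Srebf1 summed over 10 contigs to between 19.7 and 27.4 CPM in standard-low and between 23.4 and 25.5 CPM in low-low, so that standard-low held both the lowest and the highest library. The log2 fold change was -0.02 ± 0.09 (edgeR adjusted p = 0.983). Contig 2557515, with the lowest p of the gene, had 4, 11, 20 and 17 counts in standard-low 1 to 4 and 8, 16, 3 and 3 counts in low-low 1 to 4. Both groups held low and high libraries, and the log2 fold change was 0.92 ± 0.40 (edgeR adjusted p = 0.842), between 0.64 without standard-low 3 and 1.57 without low-low 2. The most abundant contig, 892990, had a log2 fold change of -0.21 ± 0.16 (edgeR adjusted p = 0.933), and -0.10 without standard-low 2. Of its 1360 bases, only 68 were covered by the mouse match.

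Srebf2 summed over 17 contigs to 33.3, 32.3, 37.2 and 37.0 CPM in standard-low 1 to 4 and to 36.8, 37.9, 37.7 and 39.4 CPM in low-low 1 to 4. Standard-low 1 and 2 lay below all low-low libraries and standard-low 3 and 4 lay within their range. The log2 fold change was -0.12 ± 0.07 (edgeR adjusted p = 0.815; two-sided exact permutation p = 0.0857). Contig 2044832, of 348 bases with 15 CpG, had 10, 12, 22 and 13 counts in standard-low against 21, 20, 24 and 33 in low-low (log2 fold change -0.65 ± 0.28, edgeR adjusted p = 0.837). The most abundant contig, 2061916, had a log2 fold change of -0.15 ± 0.16 (edgeR adjusted p = 0.955), between -0.24 without standard-low 3 and -0.05 without standard-low 1, with -0.07 without low-low 3. Its mouse match covered only 57 of its 865 bases. In Srebf2 8 of the 17 contigs had matches under 100 bases, against 15 over all 112 contigs, and the sum over the 9 with longer matches had a log2 fold change of -0.12 as well.

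The remaining contigs whose groups did not overlap were chosen after their values were seen. They were contig 2921618 in Lrp1, lower with a log2 fold change of -0.26 ± 0.18, and contig 4041483 in Srebf2, lower with -0.37 ± 0.22. Contig 3713420 in Abca1 and contig 329277 in Srebf1 were higher, with 0.45 ± 0.29 and 0.58 ± 0.27. Their edgeR adjusted p ran from 0.859 to 0.918, and the call rule of 0.05 was not reached by any.

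Captured CPM per kb differed between the genes more than between the groups. The order of the mean over 8 libraries was Nr1h2 at 6.35, Lrp1 at 5.79, Nr1h3 at 4.72, Srebf2 at 4.37, Srebf1 at 3.60, Abca1 at 3.52, Apob at 3.02 and Apoe at 2.35 CPM per kb. The ranges of all neighbours in this order overlapped over the 8 libraries. Within a library, however, Srebf2 was above Srebf1, Abca1 above Apob and Apob above Apoe in 8 of 8 libraries, Nr1h2 above Lrp1 and Lrp1 above Nr1h3 in 7, and Nr1h3 above Srebf2 and Srebf1 above Abca1 in only 5. In standard-low the extremes were 5.78 ± 1.13 in Nr1h2 and 1.97 ± 0.54 in Apoe, and in low-low 6.92 ± 0.55 in Nr1h2 and 2.73 ± 0.24 CPM per kb in Apoe (SD, n = 4 each).

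**Figure D3:**
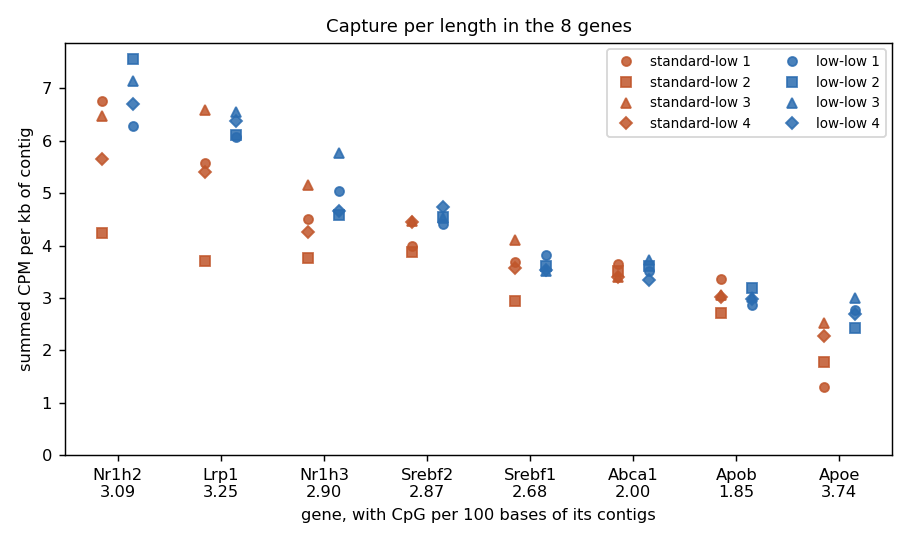
Summed CPM per kb of contig (y axis from 0) in the 8 genes, ordered by their mean, for each standard-low (orange, left) and low-low library (blue, right), with the CpG per 100 bases of each gene's contigs under its name. Apoe has the highest CpG density, 3.74 per 100 bases, and the lowest capture, a mean of 2.35 CPM per kb.

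Apoe was captured weakly for the CpG density of its contigs. Across the 112 contigs, CpG per 100 bases and CPM per kb had a Spearman rho of 0.687, and over all 548060 contigs 0.481, as a description over contigs that share the same 8 libraries. The Apoe contigs held 3.74 CpG per 100 bases over their joint length, the highest of the 8 genes, but they were unlike. Contig 1059729 had 5.93 CpG per 100 bases and was captured at 2.80 CPM per kb. Contig 1731265 had 1.93 CpG per 100 bases, below the median of 2.16 over all contigs, and was captured at 1.97 CPM per kb. Among table contigs of like CpG density and length these captures were above only 13.9% and 9.04%. In Lrp1 the median contig lay above 83.2% of its like, in Nr1h2 above 86.8%, in Nr1h3 above 80.1%, in Abca1 above 67.8%, in Apob and Srebf2 above 53.3% and in Srebf1 above 35.7%. Because the table lists only contigs with at least 81 counts in all, weakly captured DNA is missing from these ranks.

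CpG density also moved with the difference between the groups. The 8 libraries differed in how their reads were spread over CpG density. All contigs were put in 20 equal bins by density. The scale of each library in the densest bin was taken relative to its own scale over all contigs. It was -0.07, -0.23, 0.13 and -0.17 (log2) in standard-low 1 to 4. In low-low 1 to 4 it was -0.05, 0.13, 0.13 and 0.12. Standard-low 2 and standard-low 4 thus held fewer reads on CpG-dense DNA, and standard-low 3 was like low-low 2, 3 and 4. Over the whole table the median log2 fold change went with density, at 0.11 in the sparsest bin and -0.15 in the densest. Whether these differences between libraries came from the capture or from the methylation of the DNA was not tested.

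**Figure D4:**
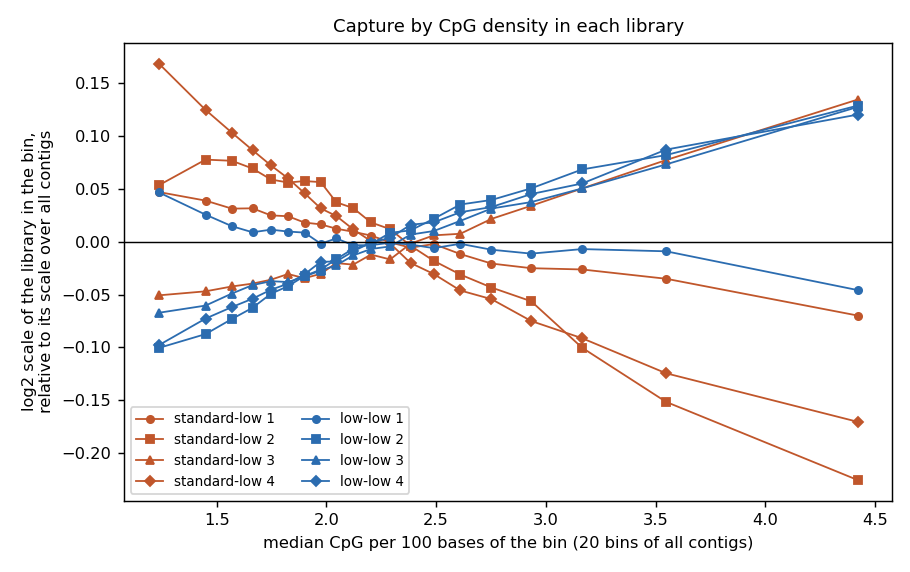
Log2 scale of each library (standard-low orange, low-low blue) within 20 bins of all contigs by CpG density, relative to its scale over all contigs, against the median CpG per 100 bases of the bin. Standard-low 2 and standard-low 4 drop to -0.23 and -0.17 in the densest bin, while standard-low 3 and low-low 2, 3 and 4 lie between 0.12 and 0.13.

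The 112 contigs had a median of 2.61 CpG per 100 bases, above the 2.162 of all contigs, but not every gene did. The medians of Apob and Abca1 lay below that of all contigs, at 1.815 and 2.064. Those of Lrp1, Apoe, Nr1h2, Nr1h3, Srebf1 and Srebf2 lay above it, from 2.549 in Srebf1 to 3.928 in Apoe. Contigs of the densest 20%, from 2.84 CpG per 100 bases upward, made up 43 of the 112 (38.4%) and 23 of the 37 in Lrp1 (62.2%), as against 3 of 30 in Abca1. In that class 37 of 43 contigs of the 8 genes were negative (86%) with a median log2 fold change of -0.25, against 65.3% and -0.10 for table contigs of the class. In the middle 60% of density 31 of 57 were negative (54.4%, median -0.06), against 48.5% and 0.01. In the sparsest 20% 6 of 12 were negative (median 0.0028), against 37.8% and 0.09. The Spearman rho between CpG density and log2 fold change was -0.449 over the 112 contigs and -0.227 over the table. When each library was scaled within the 20 bins, the Lrp1 sum had a log2 fold change of -0.15 ± 0.08 (edgeR adjusted p = 0.986), against -0.24 with 1 scale per library. Lrp1 contigs were then negative at 28 of 37 with a median of -0.13, and 0 contigs and 0 genes of the set were called. Of the 112 contigs 74 were negative in this setting, as many as with 1 scale per library, against 49.7% of the table. Their median was -0.10. In the same setting Nr1h2 had -0.19 ± 0.10, Apoe -0.40 ± 0.23, Abca1 -0.05 ± 0.05, and Srebf2 -0.06 ± 0.07 (edgeR adjusted p from 0.986 to 0.987).

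**Figure D5:**
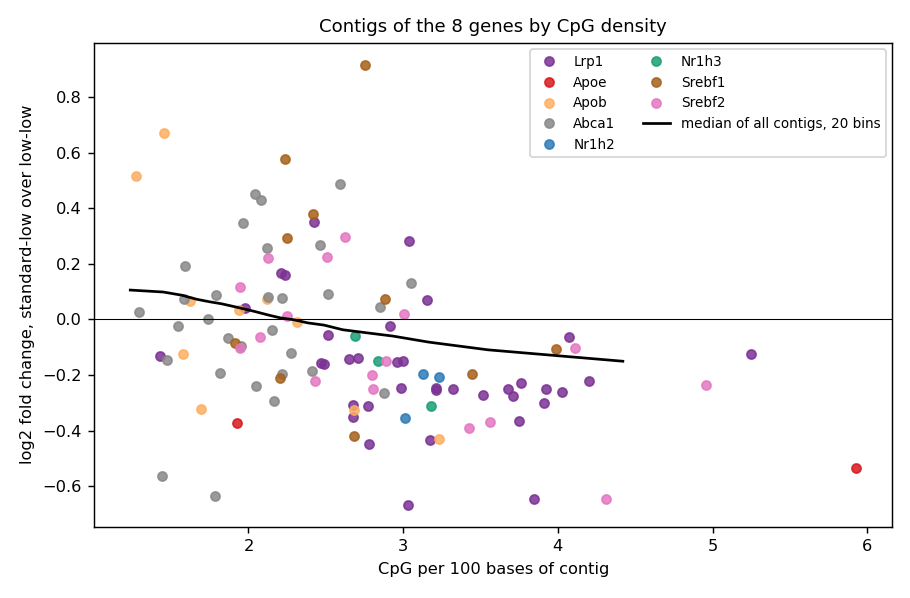
Log2 fold change of standard-low over low-low against CpG per 100 bases for the 112 contigs, coloured by gene, with the median of all contigs in 20 bins as a black line. Of the 37 Lrp1 contigs 23 lie in the densest 20% and 31 lie under 0, the line goes from 0.11 at the sparse end to -0.15 at the dense end, and the 30 Abca1 contigs lie on both sides of 0.

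Genes whose pattern over the 8 libraries was most like that of the Lrp1 sum were Inf2, Gna11, Vipr1, Obsl1 and Col7a1, by the root mean square difference of log2 CPM centred on each gene's mean. The differences were 0.0369, 0.0437, 0.0451, 0.0465 and 0.047, where the median of 7576 genes with at least 5 contigs and 100 counts was 0.24. In each of them standard-low 2 was lowest, at -0.67, -0.66, -0.59, -0.62 and -0.59, and at -0.625 in Lrp1. Because these genes were picked for likeness to Lrp1, the low value of standard-low 2 follows from the choice. Likeness over 8 libraries among this many genes is given as a description.

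Other genes of the pathway, in 5 lists, gave 642 contigs in 72 measured genes of 76, with 0 contigs and 0 gene sums called by edgeR. At an unadjusted p below 0.05 19 contigs were lower and 14 higher (5.14%, against 5.68% of the table). The gene sum was negative in 49 of 72 genes (68.1%, against 58.6% of all genes). Lipoprotein receptors and partners had 11 of 15 sums lower with a median log2 fold change of -0.05. Among them, Lrp5, a Wnt co-receptor related to Lrp1, had 99.1, 78.4, 101.8 and 99.97 CPM in standard-low 1 to 4 and 104.1, 102.7, 109.2 and 108.9 CPM in low-low 1 to 4. The groups did not overlap, and the log2 fold change was -0.16 ± 0.07 (edgeR adjusted p = 0.807). Non-overlapping and lower sums were found in 3 of the 72 genes (4.17%, against 2.08% of all 19098 gene sums). The others were Apoc3, an inhibitor of triglyceride clearance, and Npc2, the lysosomal partner of Npc1. Lrp5, Apoc3 and Npc2 were chosen after their values were seen, as were Npc1 and Rxra below. Apoc3 had 0.58 to 0.94 CPM in standard-low and 1.04 to 1.31 CPM in low-low, a log2 fold change of -0.56 ± 0.30 (edgeR adjusted p = 0.807). Npc2 had 6.51 to 6.76 CPM in standard-low and 7.03 to 8.99 CPM in low-low, a log2 fold change of -0.20 ± 0.12 (edgeR adjusted p = 0.815).

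Apolipoproteins and lipoprotein handling had 8 of 13 sums lower with a median of -0.06. Cholesterol efflux, storage and turnover had 12 of 15 lower with a median of -0.10. In that list Npc1, which exports cholesterol from lysosomes, had 19.4 ± 1.59 CPM in standard-low and 22.1 ± 0.86 CPM in low-low (SD, n = 4 each; log2 fold change -0.19 ± 0.08, edgeR adjusted p = 0.807). Cholesterol synthesis and SREBP processing was evenly split, with 11 of 22 lower and a median of 0.01. Partners of the liver X receptors were lower in 7 of 7 sums with a median of -0.11. Among them Rxra had 24.8 ± 4.03 CPM in standard-low and 27.2 ± 0.55 CPM in low-low (SD, n = 4 each, edgeR adjusted p = 0.828). The highest Rxra library was standard-low 1 at 28.3 CPM and the lowest was standard-low 2 at 19.15 CPM, so the groups overlapped. The median over all genes was -0.03.

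Marker genes of cell types were also counted, as captured DNA. Over 343 contigs in 21 of 25 marker genes, 0 were called by edgeR, and 9 were lower and 9 higher at an unadjusted p below 0.05 (5.25%, against 5.68% of the table). The median log2 fold change of gene sums was -0.23 for 4 oligodendrocyte genes, -0.13 for 4 astrocyte genes, -0.10 for 4 microglial genes, and 0.01 for 5 neuronal and for 4 endothelial genes. Their CpG density ran from 2.03 per 100 bases in the endothelial to 3.24 in the oligodendrocyte list. Their part in the results of the 8 genes was not tested.

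Totals over the table were 11646180 to 12156525 counts in standard-low libraries and 12528388 to 13533441 counts in low-low libraries, and the contigs of the 8 genes had a mean of 38.8 counts per library. Within a group, replicate libraries differed by more than sampling noise, with a chi-square per contig of 1.24 to 1.93, highest between standard-low 2 and 3.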

How the data were processed

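The table that the authors deposited gave whole-number read counts per assembled contig for 8 methyl-CpG capture libraries. The submitters' processing notes name FastQC and BWA, and versions, assembler and mouse build are not named there. Names of libraries are separated by spaces and values by tabs, per the file headers, so columns follow header order. Gene, mouse position and distance come from contig names. The table lists no contig under 81 counts in all.

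The main test was that of edgeR 4.0.16 under R 4.3.3 (TMM, estimateDisp, glmQLFit, two-sided glmQLFTest), fitted on all 548060 contigs and on the sums of 19098 genes, with Benjamini-Hochberg adjustment over all of them at 0.05. A filter at a mean of 10 counts removed 0 contigs. Gene sums used the library sizes of the contig table. The fit was tested on simulated counts with planted changes and a fixed spread. The simulated libraries held no shift with CpG density and none was set apart from the rest, so that test does not cover these features. CpG density is CpG per 100 bases of contig. Contigs of like density and length share 1 of 20 density bins and a length within 0.8 to 1.25 times. Single gene sums were also tested by an exact permutation over 70 relabellings (scipy 1.17.1). Labels do not say that replicates were separate animals, so a p-value reflects the spread among these libraries, which may be technical. The ± on log2 fold changes is a standard error derived from the edgeR test. It is the absolute log2 fold change divided by the square root of the F statistic. This error takes in the spread among these libraries as well as counting error.

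The named contigs were, in each gene, the one with the highest mean CPM and the one with the lowest p, and in Lrp1 all with an unadjusted p below 0.05. Pathway lists (receptors, apolipoproteins, efflux, synthesis, receptor partners) and marker lists (neurons, oligodendrocytes, astrocytes, microglia, endothelium) were fixed by hand. The result of 1 gene of these lists is not reported here. The members and lists were chosen with earlier results of these data known. Alternatives were DESeq2 1.42.0, limma 3.58.1 voom, other filters and scalings, a replicate block, leaving out each library, and other ways of summing genes.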

Additional observations from a re-analysis of the deposited data

How the results depend on the processing

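For the contigs of the 8 genes, 0 were called in all 16 other settings, and for the 8 gene sums 0 were called in all but 1, the fit without standard-low 3, which called 1 gene, Lrp1, with a log2 fold change of -0.36. Leaving out 1 library moved that of Lrp1 between -0.36 and -0.10 and the number of these genes called between 0 and 1. In the whole table edgeR called 147 contigs, DESeq2 32, limma voom 50 and edgeR with a filter at a mean of 20 counts 65, with 68 to 207 in fits that left out 1 library (68 without low-low 2 and 97 without standard-low 4). Among gene sums edgeR called 1, DESeq2 2 and limma voom 0, with 0 to 30 in fits that left out 1 library (30 without standard-low 3 and 8 without standard-low 2). The gene sum of Apob was reversed at -0.029 when scaled within CpG bins, a setting chosen after seeing the data, and ran from -0.044 to 0.059 when 1 library was left out. That of Srebf1 was reversed at 0.033 within CpG bins, at 0.056 with only alignments of at least 100 bases and at 0.037 without its most abundant contig, and ran from -0.091 to 0.066 when 1 library was left out. That of Abca1 ran from -0.051 to 2.32e-05 and Abca1 contig 826865 from -0.24 to 0.044 in the same way. The cause was not tested. The other 142 values of gene sums and 232 of named contigs kept direction and side of the threshold. With the replicate number as a block, 206 contigs and 3 gene sums of the table were called and 0 of the 8 genes. The log2 fold change of Lrp1 was then -0.26 (edgeR unadjusted p = 0.00157, adjusted p = 0.69), against an unadjusted p of 0.0268 in the main fit. Same-numbered libraries had correlations of -0.00838 to 0.0307 between their deviations from the group means. Of these numbers, 3 of 4 correlated best with their own number. At a mean of 22.7 counts per contig sampling noise lowers such correlations, so they cannot decide whether the numbers are pairs. The main fit does not read them as pairs. Filtering at a mean of 20 left 74 of the 112 contigs. The 2 Apoe contigs had a mean of 12.6 counts per library, against 38.8 over the 112 contigs.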

Other observations

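Contigs outside the genes but paired with them were not part of the sums. Lrp1 had 2, at 3808 and 9865 bases from the mouse gene, both beyond its 5′ end. The nearer, contig 2100949, had 15, 12, 14 and 19 counts in standard-low 1 to 4 and 13 in each of the 4 low-low libraries (log2 fold change 0.34 ± 0.31), and standard-low 2 was not set apart there. The farther, contig 1225325, had 35, 44, 57 and 41 counts in standard-low 1 to 4 and 61, 62, 45 and 69 in low-low 1 to 4 (log2 fold change -0.29 ± 0.18, edgeR adjusted p = 0.907). Apob had 9 such contigs, with log2 fold changes between -0.09 and 0.19.

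Some contigs shared a stretch of mouse sequence. In Srebf2, 4 contigs matched chromosome 15 within positions 82180376 to 82180490 by alignments of 57 to 115 bases, and their log2 fold changes ran from -0.22 to 0.23.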
